A study of Mus musculus with 9 samples.

Results

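The genes described here are 10 epithelial genes grouped around Sox2 in cultured mouse duodenal organoids: the transcription factor genes Sox2 and Trp63, the squamous-type genes Sprr1a and S100a7a, and the keratin genes Krt7, Krt8, Krt18, Krt19, Krt20 and Krt23. They are 10 of the 46517 genes in each count table. They were chosen by symbol after the fold changes of all 3 comparisons in these samples were known, so their own levels and fold changes are given as a description, with no p. Where a member is called, this says only on which side of the thresholds for all genes it lies, and is not evidence independent of that choice. Every member was found once in the tables, and 9 of the 10 had counts high enough to be fitted; Trp63 did not.

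The study asked how hypoxia-inducible factors (HIFs) act on the intestinal epithelium. Organoids grown from duodenal crypts of wild-type C57BL/6J mice were broken into single cells and exposed to adenovirus at 50 particles per cell, and RNA was taken about 72 hours later. The 3 groups, with 3 samples each, received Ad-GFP (the control vector), Ad-hHIF1 or Ad-hHIF2, the last 2 carrying human HIF alleles with proline-to-alanine changes that keep them from being degraded. Ad-GFP came from a vector core and the HIF vectors were made separately. All 3 groups shared adenoviral transduction, 5% oxygen, and L-WRN conditioned medium (Wnt3a, R-spondin 3 and noggin) with the inhibitors Y27632 and SB431542, conditions the study used to enrich for stem cells. The expression was therefore transient, of a human protein at vector-driven levels. The crypt stem cell genes Lgr5 and Olfm4 were low. Lgr5 averaged 0.20 CPM in Ad-GFP, 0.17 in Ad-hHIF1 and 0.69 in Ad-hHIF2, with all Ad-hHIF2 samples above Ad-GFP and no call, and Olfm4 had at most 5 counts in any sample. Samples carry the replicate numbers 1, 3 and 4, and the study calls them biological replicates; the labels do not say which animals or cultures they came from, so p-values measure the spread between these samples.

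Total expected counts ran from 21722618 to 51119041 per sample, of which 41.7% to 59.2% fell on protein-coding genes. The highest share was in Ad-hHIF2 replicate 1, and Ad-hHIF1 replicate 3 had 16.0% of its counts on the 2 genes Gm10800 and Gm26870 alone. Reads assigned to mouse Epas1, the HIF2 gene, stood at 604 to 758 CPM (counts scaled to the library's effective total) in the Ad-hHIF2 samples and at 1.47 to 3.07 CPM in the other 6, which matches the labels. Hif1a read 299 to 319 CPM in Ad-hHIF1 samples and 198 to 251 CPM in the others. Markers of intestinal epithelium were unevenly present. Cdh1 (E-cadherin) averaged 218.5 ± 12.45 CPM in Ad-GFP (SD, n = 3) and the intestinal regulator Cdx2 averaged 7.21 ± 0.52, whereas Epcam was at 2.94 ± 0.74, Vil1 at 4.36 ± 0.43 and Cdx1 had no count in any sample. Vim, usually a mesenchymal filament gene, averaged 1120 ± 12.7 CPM in Ad-GFP and 1754 ± 49.0 in Ad-hHIF2.

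Keratins are the intermediate filament proteins of epithelia, and a type I (acidic) chain must pair with a type II (basic) chain to form a filament. Intestinal and other simple epithelia build theirs mainly from KRT8 with KRT18, KRT19 and KRT20, whereas stratified squamous epithelia use KRT5 with KRT14 in the basal layer, under the control of p63, the product of Trp63. SOX2 is a transcription factor of the embryonic foregut that persists in oesophagus and stomach, while CDX2 marks intestine. SPRR1A is a small proline-rich precursor of the cornified envelope, and S100A7A, the mouse relative of psoriasin, is a calcium-binding protein best known from skin.

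Positions are from GENCODE M21 (GRCm38), matched by Ensembl identifier. Sox2 (ENSMUSG00000074637) is at chr3:34650405-34652461 on the plus strand. S100a7a (ENSMUSG00000063767) is at chr3:90654017-90658669, plus strand, and Sprr1a (ENSMUSG00000050359) at chr3:92483952-92485895, minus strand. The type II keratin gene Krt8 and the type I gene Krt18 are neighbours on chromosome 15, with 23.7 kb and no other protein-coding gene between them, and Krt20 and Krt23 are neighbours on chromosome 11 with 39.8 kb between them. Sox2 lies within the span of the noncoding gene Sox2ot on the same strand and shares no run of 50 bases with any other annotated transcript. Sox2ot had 0 to 25.6 counts per sample, with 18.0 in Ad-hHIF2 replicate 3, where Sox2 itself had 1566. S100a7a transcripts share 6.44% of their 50-base runs with 227 other genes, and its counts were fractional in all 9 samples, so some of its reads were divided among genes. Krt8 shares 29.7% of its 50-base runs, mostly with the pseudogene Krt8-ps (26.9%), which was not analysed here. The expected counts of Krt8 were whole in all 9 samples.

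HIFs bind hypoxia response elements, whose core is ACGTG or GCGTG. Some promoters are printed here because Sox2 and S100a7a differed most under Ad-hHIF2, Sprr1a differed most under Ad-hHIF1, and Krt23 is the one that holds both forms of the core. Each is the 250 bases before the RefSeq start site (GRCm38.p6), written in the direction of transcription, with hypoxia response cores (either strand), TATAAA boxes and GGGCGG boxes (either strand) in capitals. The Sox2 window is chr3:34649745-34649994 (plus), Sprr1a chr3:92485882-92486131 (minus), S100a7a chr3:90654052-90654301 (plus) and Krt23 chr11:99493121-99493370 (minus).
Sox2: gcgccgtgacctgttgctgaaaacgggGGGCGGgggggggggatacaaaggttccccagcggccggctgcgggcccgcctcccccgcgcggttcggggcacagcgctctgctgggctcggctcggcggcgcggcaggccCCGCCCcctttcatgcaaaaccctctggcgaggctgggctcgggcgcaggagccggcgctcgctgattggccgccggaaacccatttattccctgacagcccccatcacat
Sprr1a: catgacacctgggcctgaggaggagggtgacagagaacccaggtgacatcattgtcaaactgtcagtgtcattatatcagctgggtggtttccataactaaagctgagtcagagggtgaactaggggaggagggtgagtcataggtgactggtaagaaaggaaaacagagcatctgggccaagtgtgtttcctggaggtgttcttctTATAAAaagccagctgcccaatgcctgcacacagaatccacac
S100a7a: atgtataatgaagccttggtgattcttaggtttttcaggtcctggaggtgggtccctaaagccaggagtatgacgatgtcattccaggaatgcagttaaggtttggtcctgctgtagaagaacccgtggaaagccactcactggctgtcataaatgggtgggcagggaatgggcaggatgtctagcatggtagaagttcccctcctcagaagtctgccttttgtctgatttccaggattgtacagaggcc
Krt23: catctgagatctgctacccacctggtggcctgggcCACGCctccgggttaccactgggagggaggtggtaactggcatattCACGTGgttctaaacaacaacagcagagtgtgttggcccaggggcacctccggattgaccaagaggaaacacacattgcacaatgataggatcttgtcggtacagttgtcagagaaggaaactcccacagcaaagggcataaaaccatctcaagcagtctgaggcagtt

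The table of RefSeq promoters held 8 of the 10 genes, all but Krt19 and Trp63. Neither core was found in the windows of Sox2, Sprr1a and S100a7a, nor in those of Krt7, Krt8 and Krt20. Krt18 held 2 GCGTG cores and Krt23 held 1 GCGTG and an ACGTG read on both strands of the same site. That site reads CACGTG. The paper says that cores with a cytosine before them are sites of other factor families, rarely recognised by HIFs. Across all 32851 RefSeq promoter windows of this length, 16.6% held ACGTG, 28.2% held GCGTG and 38.6% held either. The Sox2 window is GC-rich (72% G or C, against a median of 52.4% over all windows) with 2 GGGCGG boxes, a motif found in 32.7% of windows, whereas Sprr1a has a TATAAA box 43 to 38 bases before its start, a motif found in 12.4%. The S100a7a window lies inside the M21 gene, which begins further upstream than the RefSeq start. These are matches of letters in a short window, and their absence there bears on no other stretch of the gene.

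Sox2 was low in the control organoids. It had 149, 154 and 35 counts in Ad-GFP replicates 1, 3 and 4 and 102, 68 and 124 in the Ad-hHIF1 samples. In Ad-hHIF2 replicates 1, 3 and 4 it had 1482, 1566 and 820 counts. Scaled for depth, these were 1.75 to 4.27 CPM in Ad-GFP, 2.97 to 3.17 CPM in Ad-hHIF1 and 26.5 to 33.9 CPM in Ad-hHIF2. Every Ad-hHIF2 sample lay above every sample of the other groups, which overlapped each other. The fitted log2 fold change of Ad-hHIF2 against Ad-GFP was 3.12 ± 0.24 (SE), an 8.72-fold higher level, and it stayed between 2.88 and 3.31 when any of the 6 samples was left out. Against Ad-hHIF1 it was 3.32 ± 0.25, and Ad-hHIF1 against Ad-GFP was -0.16 ± 0.33. On log2(TPM + 1) the value of Ad-hHIF2 against Ad-GFP was smaller, at 1.60, where the median of all genes was 0.12. In these bulk libraries a larger share of cells with Sox2 and more Sox2 RNA per cell cannot be told apart.

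**Figure D1:**
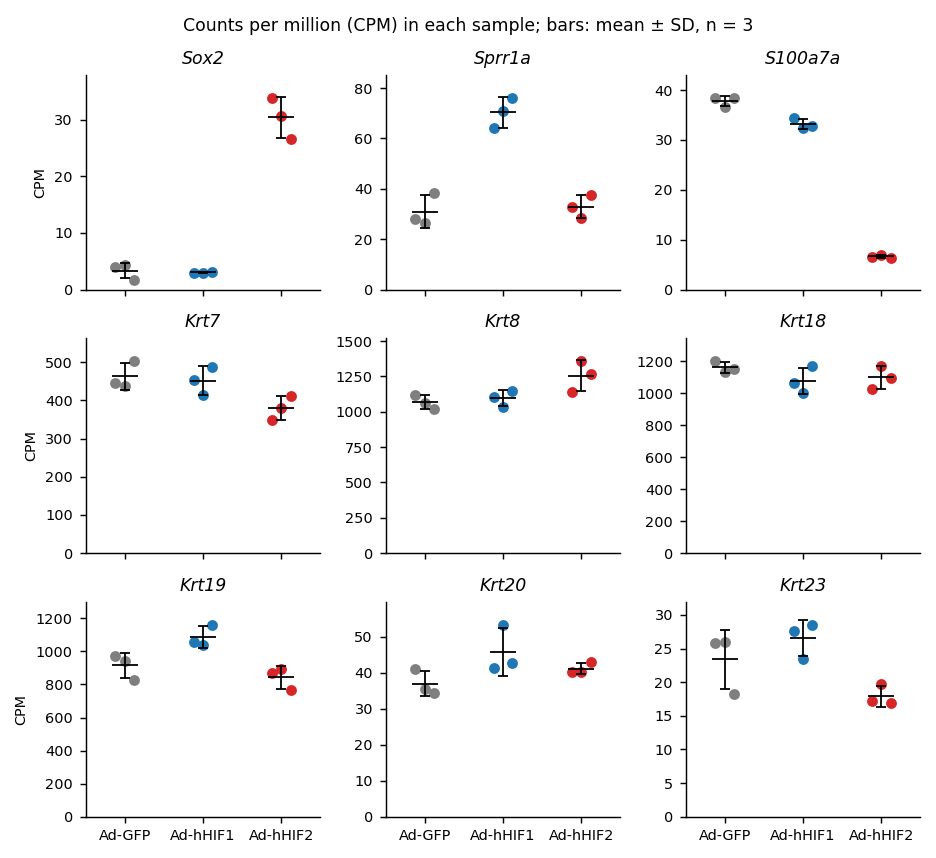
CPM (vertical axes, linear from 0) of 9 genes in each of the 9 samples, with points for samples and bars for the mean ± SD (n = 3). Sox2 is high and S100a7a low in the 3 Ad-hHIF2 samples, Sprr1a is high in the 3 Ad-hHIF1 samples, and the keratins differ little between groups.

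Of 18 other Sox genes, 6 were fitted in the Ad-hHIF2 against Ad-GFP comparison, and their median log2 fold change was -0.30 against -0.01 over all genes tested. Only Sox9, a factor of crypt progenitor and Paneth cells, was called lower, where called means an adjusted p under 0.05 and at least a 2-fold change; 3.83% of all genes were called lower. It fell by 1.63 on the log2 scale (SE 0.26, adjusted p = 0.0023, edgeR quasi-likelihood test with Benjamini-Hochberg adjustment), from 8.30 ± 3.12 to 2.65 ± 0.35 CPM, with all 3 Ad-hHIF2 samples below all Ad-GFP samples. On log2(TPM + 1) and log2(TPM + 0.1), which understate changes of low genes, Sox9 was at -0.17 and -0.72, short of 2-fold. Sox21, another foregut-expressed Sox gene, was named after its values were seen. It was at 0.15 to 0.52 CPM in Ad-GFP and at 0.69 to 1.46 CPM in Ad-hHIF2, without overlap, and was not called. With 3 counts in Ad-GFP replicate 4, Sox21 needed its Ad-hHIF2 samples to pass the filter on low counts, so nothing is read from this. Sox4, the most abundant of the family by counts, was at 121 CPM in Ad-GFP and 120 in Ad-hHIF2.

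S100a7a had the opposite profile. It read 38.5, 36.7 and 38.3 CPM in Ad-GFP replicates 1, 3 and 4, and 34.3, 32.3 and 32.8 CPM in the same-numbered Ad-hHIF1 samples. In the Ad-hHIF2 samples it read 6.585, 6.965 and 6.371 CPM. All 3 groups were separate, the Ad-hHIF2 samples by a wide margin and Ad-hHIF1 just below Ad-GFP. The log2 fold change of Ad-hHIF2 against Ad-GFP was -2.503 ± 0.08 (SE), a 5.67-fold lower level that stayed between -2.54 and -2.47 with any sample left out. Against Ad-hHIF1 it was -2.32 ± 0.07. Ad-hHIF1 against Ad-GFP gave -0.19 ± 0.07, and on log2(TPM + 1) the value was 0.003, where the median of all genes was 0.04. On that scale S100a7a was at -1.34 in Ad-hHIF2 against Ad-GFP, where the median of all genes was 0.12.

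S100a7a belongs to a cluster of S100 genes on chromosome 3, small calcium-binding proteins. Of 17 other S100-named genes, 11 were fitted against Ad-GFP, and 3 were called lower in Ad-hHIF2 and 0 higher, where 3.83% of all genes were called lower and 45.8% did not overlap. S100a14 fell by 2.15 on the log2 scale (SE 0.17, adjusted p = 5.32e-05, edgeR quasi-likelihood test), from 12.05 ± 0.88 to 2.70 ± 0.60 CPM. S100a3 fell by 1.39 (SE 0.26) and S100a4 by 1.23 (SE 0.26), both with all Ad-hHIF2 samples below all Ad-GFP samples, and both were short of 2-fold on log2(TPM + 1) (-0.41 and -0.50), as was S100a14 (-0.82). Over the 11 fitted S100-named genes the median log2 fold change was -0.48, against -0.01 over all genes. The 9 fitted S100 genes on chromosome 3 other than S100a7a had 8 negative values, although S100a6 and S100a10 were 0.01 and 0.13 on log2(TPM + 1), where the median of all genes was 0.12. S100a14 lies 125.2 kb from S100a7a and S100a6 29.8 kb from it, whereas S100a11, with 0.23 (SE 0.19), lies 2861.8 kb away. In Ad-hHIF1 against Ad-GFP 0 of the 11 S100-named genes were called by edgeR, as were 0% of all genes, so this says nothing particular to S100 genes. Of the 11, 2 had an unadjusted p under 0.05 (edgeR quasi-likelihood test), as had 1308 of the 15233 genes tested.

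**Figure D2:**
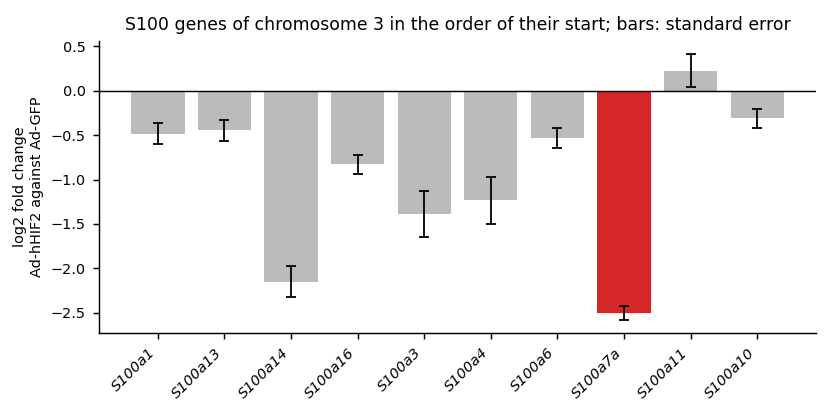
Fitted log2 fold change (vertical axis) of Ad-hHIF2 against Ad-GFP for the S100 genes of chromosome 3, in the order of their start sites and not to scale, with standard errors. S100a7a (red) and S100a14 have the most negative values, at -2.503 and -2.15, and S100a11 alone is above 0; on log2(TPM + 1), where the median of all genes was 0.12, S100a6 and S100a10 are at 0.01 and 0.13.

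Sprr1a had the highest level in Ad-hHIF1. It read 27.9, 26.4 and 38.5 CPM in Ad-GFP replicates 1, 3 and 4, and 33.0, 28.3 and 37.7 CPM in the same-numbered Ad-hHIF2 samples. The Ad-hHIF1 samples read 64.0, 71.0 and 76.25 CPM. Every Ad-hHIF1 sample lay above every other sample, and the Ad-GFP and Ad-hHIF2 samples overlapped. The log2 fold change of Ad-hHIF1 against Ad-GFP was 1.19 ± 0.15 (SE), a 2.28-fold higher level, between 1.08 and 1.38 with any sample left out. Ad-hHIF2 against Ad-GFP gave 0.10 ± 0.16, and Ad-hHIF2 against Ad-hHIF1 gave -1.10 ± 0.15. Of the 14 other Sprr genes, 8 had at most 3 counts in every sample and 2 were fitted in the direct comparison of the HIFs. Sprr2h, at 39, 47 and 41 counts in Ad-hHIF1 and 3 to 10 counts elsewhere, passed the filter on low counts only through the Ad-hHIF1 samples. It was past the thresholds, lower in Ad-hHIF2, in the direct comparison, where 3.7% of all genes were called lower, but not in Ad-hHIF1 against Ad-GFP. As it entered the fits through the samples where it is high, no p is given and nothing is read from this. Sprr2h belongs to a family of similar genes, and its expected counts were whole in all 9 samples.

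Trp63 was close to absent. It had 2, 7 and 0 counts in Ad-GFP replicates 1, 3 and 4, and 9, 3 and 0 counts in the same-numbered Ad-hHIF1 samples. The Ad-hHIF2 samples had 0 counts each, which allows up to 3 counts per library, or 0.0686, 0.0589 and 0.0970 CPM. At this depth no difference between the groups was detectable for Trp63. Counting intervals and floors cover counting error only.

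Genes of squamous differentiation were looked at beside these members, from lists drawn up with earlier results of these data known. Of 50 gene rows for cornified layers and their regulators, 14 were fitted against Ad-GFP, with 1 called higher in Ad-hHIF2 and 1 lower, where 2.9% and 3.83% of all genes were. Ppl (periplakin, a cornified envelope and desmosome linker) was higher by 1.29 (SE 0.11, adjusted p = 5.77e-05, edgeR quasi-likelihood test), at 66.3 ± 8.06 CPM against 27.1 ± 2.65. Ovol1, a repressor active in epidermal differentiation, fell by 1.48 (SE 0.33), but its adjusted p (edgeR quasi-likelihood test) rose from 0.0112 to as much as 0.0541 when a sample was left out. The list's median was 0.05. Markers of cornified or basal squamous cells were unevenly present. Krt5 and Krt1 had no count in any sample, Krt17 at most 1, Lor at most 3 and Krt4 at most 5. Krt14 had 30 to 132 counts, Krt13 32 to 59, Krt10 7 to 70 and the cornified envelope gene Ivl (involucrin) 3 to 23. Cdsn (corneodesmosin) had 294 to 595 counts and Sbsn (suprabasin) 15 to 104.5. In Ad-hHIF2 against Ad-hHIF1, 15 rows were fitted, with 3 called higher and 1 lower, where 2.42% and 3.7% of all genes were. Besides Ppl, Grhl1 and Serpinb5 were called higher there, and both lost the call when a sample was left out. Ovol1 was called lower there (-1.83, SE 0.38) with any sample left out.

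Genes that basal cells use, but not they alone, were counted in the same way. Of 17 fitted gene rows, 4 were called higher in Ad-hHIF2 than in Ad-GFP and 0 lower, where 2.9% and 3.83% of all genes were, and the median was 0.28. Igfbp3, which binds insulin-like growth factors, was at 1144 CPM on average against 199 in Ad-GFP (log2 fold change 2.53, SE 0.09). Aqp3, a glycerol and water channel, was at 7.02 to 8.95 CPM against 0.191 to 0.998 CPM in Ad-GFP. It had 7, 36 and 15 counts in Ad-GFP replicates 1, 3 and 4. In this comparison it needed its Ad-hHIF2 samples to pass the filter on low counts, so nothing is read from its call against Ad-GFP. Lama3, a laminin chain of hemidesmosome-anchoring basement membrane, differed by 1.56 (SE 0.07) and Dlk2 by 1.47 (SE 0.20). Other genes of the list went the other way, short of 2-fold. Fermt1 (-0.74, SE 0.09), Jag2 (-0.39, SE 0.07) and Perp (-0.37, SE 0.07) had all Ad-hHIF2 samples below all Ad-GFP samples. Counting both directions, 13 of the 17 had an unadjusted p under 0.05 (edgeR quasi-likelihood test), as had 6175 of the 14987 genes tested. The same 4 genes were called higher in Ad-hHIF2 than in Ad-hHIF1 and 0 lower, among 17 fitted, where 2.42% and 3.7% of all genes were. That comparison uses the same Ad-hHIF2 samples. On log2(TPM + 1) against Ad-GFP, Aqp3 (0.78) and Dlk2 (0.56) were short of 2-fold, as were Ppl (0.89) and Ovol1 (-0.04).

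The keratin members ranged widely in level. In Ad-GFP, per kilobase of effective transcript length, Krt19 averaged 948 ± 70.1 CPM, Krt18 920 ± 29.7 and Krt8 640 ± 30.7. Krt19 and Krt18 overlapped between samples, and both lay above Krt8. Krt7, a keratin of ducts and some glandular epithelia, was at 120 ± 9.08 CPM per kilobase, a value that rests on an effective length of 3793 to 3886 bases. Krt20, typical of differentiated intestinal cells, was at 20.7 ± 2.02 and Krt23 at 16.4 ± 3.11. On that scale Sprr1a (46.3 ± 9.72) and S100a7a (33.1 ± 0.89) stood between Krt7 and Krt20, and Sox2 was at 1.75 ± 0.73. Krt19, Krt18 and Krt8 each exceeded at least 98.59% of 15551 genes, those of the 9-sample fit with an effective length in every sample, and Sox2 exceeded 35.0% of them. In Ad-hHIF2, Sox2 reached 15.8 ± 1.93 CPM per kilobase and exceeded 80.6% of genes. It overlapped Krt23 (12.6 ± 1.10) in 1 sample, at 13.81 against the highest Krt23 value of 13.83, while S100a7a at 5.81 ± 0.27 exceeded 59.0%. In Ad-hHIF1, Sprr1a at 107 ± 9.26 overlapped Krt7 at 117 ± 8.45.

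No keratin member differed 2-fold in any comparison. Krt8 read 1120, 1059 and 1022 CPM in Ad-GFP replicates 1, 3 and 4 and 1143, 1358 and 1266 CPM in the Ad-hHIF2 samples, without overlap, and its log2 fold change was 0.24 ± 0.10 (SE). Its partner Krt18 read 1131 to 1200 CPM in Ad-GFP and 1028 to 1171 CPM in Ad-hHIF2, with -0.08 ± 0.09. Krt7 read 446, 438.5 and 502 CPM in Ad-GFP and 347, 381 and 410 CPM in Ad-hHIF2, again without overlap, with -0.28 ± 0.10. Krt19 (-0.11 ± 0.10), Krt20 (0.15 ± 0.08) and Krt23 (-0.38 ± 0.14) overlapped between these groups, where 45.8% of all genes did not overlap. The sign of these small values depended on the scaling: with total counts alone Krt18 and Krt19 became positive (0.17 and 0.15), and on log2(TPM + 1) Krt7, Krt18, Krt19 and Krt23 were all positive (0.16, 0.37, 0.31 and 0.06). With total counts alone the median over all genes moved from -0.01 to 0.24, and relative to it Krt7, Krt18, Krt19 and Krt23 were at -0.28, -0.07, -0.10 and -0.38. On log2(TPM + 1) the median was 0.12, and small noncoding RNA genes made up 87.4% to 91.8% of all TPM.

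**Figure D3:**
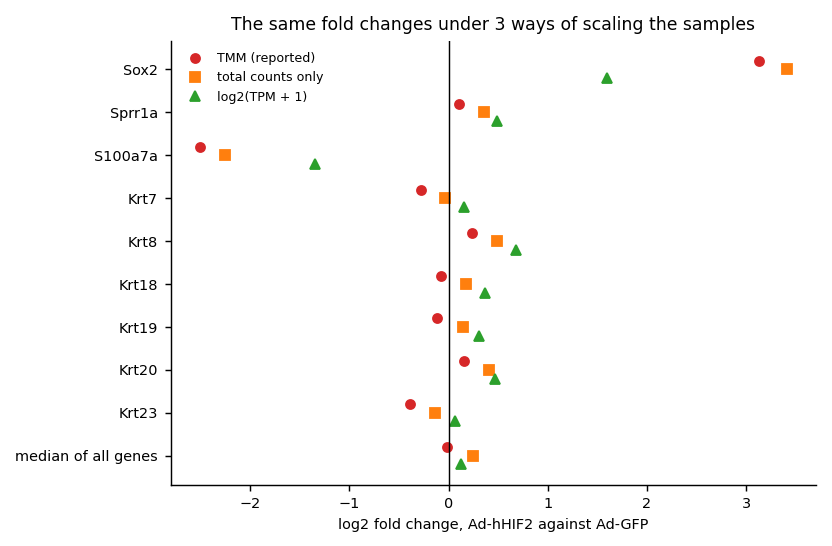
Log2 fold change (horizontal axis) of Ad-hHIF2 against Ad-GFP for the 9 fitted genes and for the median of all genes, under trimmed-mean (TMM) scaling, total counts alone and log2(TPM + 1). Sox2 and S100a7a keep their sides of 0, while Krt7, Krt18, Krt19 and Krt23 lie below 0 under TMM and above 0 on log2(TPM + 1).

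In Ad-hHIF1 against Ad-GFP 17.4% of all genes did not overlap, and among the keratin members Krt19 and Krt20 did not. Krt19 read 829 to 975 CPM in Ad-GFP and 1037 to 1161 CPM in Ad-hHIF1, with a log2 fold change of 0.25 ± 0.09 (SE). Krt20 read 34.3 to 41.0 CPM in Ad-GFP and 41.4 to 53.3 CPM in Ad-hHIF1, with 0.30 ± 0.12; the 2 groups were separated by less than 1 CPM. Krt7, Krt8, Krt18 and Krt23 overlapped between these groups. Set directly against each other, the HIF groups did not overlap in Krt7 (-0.25 ± 0.10, Ad-hHIF2 against Ad-hHIF1), Krt19 (-0.37 ± 0.09) and Krt23 (-0.57 ± 0.14), though Krt7 was 0.02 on log2(TPM + 1), where the median of all genes was 0.06. Of all genes, 41.8% did not overlap in that comparison.

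**Figure D4:**
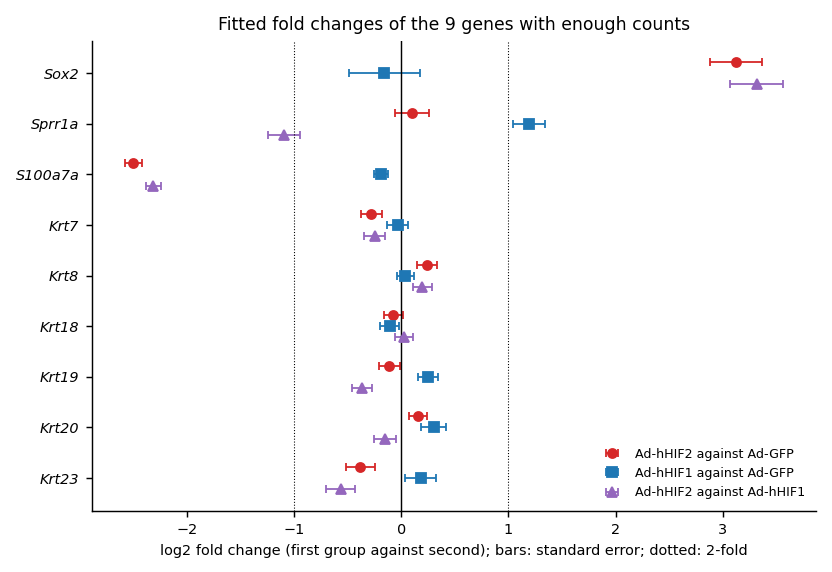
Fitted log2 fold change (horizontal axis) of each gene in the 3 comparisons, with standard errors; dotted lines mark a 2-fold difference. Sox2 and S100a7a pass the lines in both comparisons of Ad-hHIF2, Sprr1a in both comparisons of Ad-hHIF1, and every keratin lies between them, with signs that for several depend on the scaling.

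Ratios between keratins within a sample do not depend on how samples are scaled. Krt8 over Krt18, in CPM per kilobase, was 0.673 to 0.709 in Ad-GFP, 0.745 to 0.789 in Ad-hHIF1 and 0.842 to 0.878 in Ad-hHIF2, so that the 3 groups were separate. The means were 0.696 ± 0.020, 0.770 ± 0.023 and 0.865 ± 0.020 (SD, n = 3). Krt7 over Krt8 was 0.171 to 0.213 in Ad-GFP and 0.12 to 0.139 in Ad-hHIF2. Krt19 over Krt18 was highest in Ad-hHIF1 (1.28 to 1.38), against 0.954 to 1.09 in Ad-GFP and 0.907 to 1.09 in Ad-hHIF2, which overlapped. The 4 type I members (Krt18, Krt19, Krt20 and Krt23) summed to 2.504 ± 0.058 times the type II members (Krt7 and Krt8) in Ad-GFP, to 2.62 ± 0.08 times in Ad-hHIF1 and to 2.08 ± 0.14 times in Ad-hHIF2. The type I sum was 1904 ± 92.7 CPM per kilobase in Ad-GFP and 1762 ± 91.1 in Ad-hHIF2, and the type II sum 760 ± 24.6 and 851 ± 69.0. These ratios were chosen after the values were seen and were not tested.

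**Figure D5:**
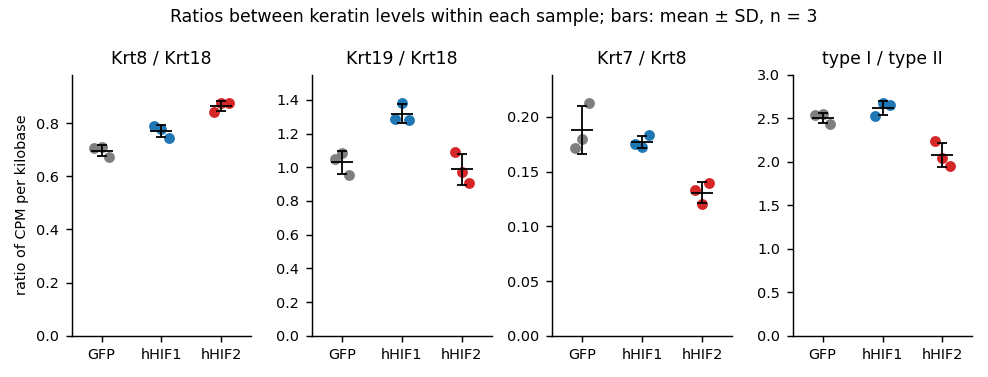
Ratios of keratin levels in CPM per kilobase (vertical axes, linear from 0) within each of the 9 samples, with bars for the mean ± SD (n = 3). Krt8 over Krt18 is separate in all 3 groups at 0.696, 0.770 and 0.865, and the type I to type II ratio is lowest in Ad-hHIF2.

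The 6 keratin members made up nearly all keratin RNA in these organoids, 99.5% to 99.7% of the summed level per kilobase in each sample. Of 45 other keratin genes, 12 had no count in any sample and 17 had at most 3 counts in every sample. Krt80 was the most abundant of the rest, at 6.12 ± 0.67 CPM in Ad-GFP and 6.85 ± 0.87 in Ad-hHIF2. Krt14, the basal-layer type I chain, was the 1 called in Ad-hHIF2 against Ad-GFP among 6 fitted, where 6.73% of all genes were called: it fell by 1.58 on the log2 scale (SE 0.25, adjusted p = 0.00201, edgeR quasi-likelihood test), from 2.77 ± 0.16 to 0.93 ± 0.11 CPM. On log2(TPM + 1) and log2(TPM + 0.1) Krt14 was at -0.14 and -0.62, short of 2-fold. It had 58 to 102 counts in Ad-GFP and 30 to 44 in Ad-hHIF2. Against Ad-hHIF1, Krt14 (-1.76, SE 0.24) and Krt79 (-1.22, SE 0.34) were the 2 called of 7 fitted, both lower, where 3.7% of all genes were called lower. Krt79 lost its call when a sample was left out. Krt13 and Krt10, keratins of stratified layers, were at 1.31 ± 0.25 and 0.87 ± 0.13 CPM in Ad-GFP and were not called.

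Counted against the whole transcriptome, 2 of the 9 fitted members were called in Ad-hHIF2 against Ad-GFP, Sox2 higher and S100a7a lower. Over all 14987 genes tested 6.73% were called, 2.9% higher and 3.83% lower. In that comparison 2 members lay wholly above and 2 wholly below the controls, where 45.8% of all genes did not overlap. In Ad-hHIF1 against Ad-GFP 0 members were called, as were 0% of the 15233 genes tested by edgeR, of which 1308 had an unadjusted p under 0.05. DESeq2 called 1 gene there, and that gene was Sprr1a. In that comparison 3 members lay above and 1 below, where 17.4% of genes did not overlap. In Ad-hHIF2 against Ad-hHIF1, fitted on all 9 samples, Sox2 was called higher and Sprr1a and S100a7a lower, while 6.11% of 15556 genes were called, 2.42% higher and 3.7% lower. There 1 member lay above and 5 below, where 41.8% of genes did not overlap. The 951 genes called in that comparison became 585 without Ad-hHIF2 replicate 1 and 629 without Ad-hHIF2 replicate 3, while the 3 members were called in each of the 6 fits that left out a sample. With total counts alone Sprr1a was at -0.91, short of 2-fold, but at -1.08 relative to the median of all genes (0.17), and on log2(TPM + 1) it was at -0.77. The median log2 fold change of the 9 members was -0.08, 0.04 and -0.25 in the 3 comparisons, against -0.01, 0.00 and -0.01 over all genes. As the members were chosen on these contrasts, and the contrasts share samples, nothing further is read from these counts.

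The genes whose pattern over the 9 samples was most like that of Sox2, S100a7a or Sprr1a were found among 12386 genes by Pearson correlation of log2 CPM. This is a description over samples that share groups and depth. For Sox2 these included Otud3 (r = 0.997), Ube3b, Enpp1 and Gm28373. Otud3, a deubiquitinase, averaged 10.2 CPM in Ad-GFP, 10.4 in Ad-hHIF1 and 33.5 in Ad-hHIF2. For S100a7a they were Ptgs2 (r = 0.998), Jag1, Dut, Chka and Polr1a. Ptgs2, the inducible prostaglandin synthase, averaged 173, 156 and 58.1 CPM, and Jag1, a Notch ligand, 120, 106 and 34.3 CPM in the same groups. For Sprr1a they were Alg11 (r = 0.957), Hif1a, Phospho1, Aldh9a1 and Fbp2, with Phospho1 at 4.50, 9.32 and 4.34 CPM. The Ad-hHIF1 samples received a human HIF1 allele, and the part of its reads in the Hif1a values was not tested.

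Genes of neighbouring identities gave values in both directions. Of 12 fitted stomach and foregut genes, 2 were called higher in Ad-hHIF2 than in Ad-GFP and 1 lower, where 2.9% and 3.83% of all genes were, with a list median of 0.41. Tff2, a trefoil peptide of gastric glands, went from 0.28 to 1.66 CPM and Vsig1, a gastric junction protein, from 5.50 to 24.0 CPM, while Anxa10 fell by 1.20 on the log2 scale (SE 0.10). Tff2 had 8, 10 and 7 counts in Ad-GFP replicates 1, 3 and 4 and passed the filter on low counts only through Ad-hHIF2. Nothing is therefore read from its call. On log2(TPM + 1) Tff2 (0.60) and Anxa10 (-0.57) were short of 2-fold, as were Muc2 (-0.69), Lgals4 (-0.62), Ly6a (-0.49), Il1rn (-0.27) and Plaur (-0.45) of the lists that follow. Of the fitted intestinal genes, Cdh17 (1.43, SE 0.09) was called higher, and Muc2 (-1.77, SE 0.24) and Lgals4 (-1.14, SE 0.09) lower. Apoa4, an apolipoprotein of enterocytes, had 97, 142.6 and 76 counts in Ad-hHIF2 and at most 2 in the other samples, and passed the filter on low counts only through Ad-hHIF2. Cdx2 was at 8.02 ± 1.30 CPM in Ad-hHIF2 against 7.21 ± 0.52 and was not called. Of 15 fitted genes that anchor or modify keratin filaments, such as the plakin Plec and desmoplakin (Dsp), 0 were called in any comparison by edgeR. In Ad-hHIF2 against Ad-GFP 6 had an unadjusted p under 0.05 (edgeR quasi-likelihood test), as had 6175 of the 14987 genes tested. The median there was 0.01. Of 16 fitted genes linked with epithelial damage and repair, 0 were called higher and 3 lower in Ad-hHIF2, where 2.9% and 3.83% of all genes were (Ly6a -1.26, Il1rn -1.06, Plaur -1.01), with a median of -0.39. With total counts alone Anxa10, Lgals4, Il1rn and Plaur were short of 2-fold (-0.95, -0.90, -0.79 and -0.76), where the median of all genes was 0.24.

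Markers of other cell types moved with the groups too. The 19 markers of mesenchyme, endothelium, leukocytes and glia summed to 1149 to 1172 CPM in Ad-GFP, 1036 to 1123 in Ad-hHIF1 and 1752 to 1839 in Ad-hHIF2, mostly Vim. Without Vim the sums were 34.8 to 42.6, 27.7 to 70.9 and 28.1 to 31.8 CPM. None of the 19 was at 0 in all samples, but Cd3e had at most 7 counts, Lum 8, Cdh5 12, Des 16 and Acta2 18 in any sample. Of 12 fitted, 0 were called higher in Ad-hHIF2 than in Ad-GFP and 2 lower, where 2.9% and 3.83% of all genes were. The leukocyte gene Ptprc was among those called lower. It had 18, 24 and 23 counts in Ad-GFP replicates 1, 3 and 4 and 3, 3 and 0 in the same-numbered Ad-hHIF2 samples. It passed the filter on low counts only through Ad-GFP, so nothing is read from its call. The part of these cell types, or of the protein-coding share of the libraries, in the differences of Sox2, S100a7a and Sprr1a was not tested.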

How the data were processed

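RNA-seq was made from 9 organoid samples, 3 per group, grouped by the adenovirus named in the labels. The deposited tables, 1 per sample, hold RSEM output for 46517 genes: expected counts, TPM, FPKM and an effective length that the authors' RSEM run estimated (deposited as other columns). FPKM values were deposited but not used here. The RSEM version, aligner, genome build and strandedness are not given in the sources used here, and the authors' test, EBSeq, was not used here. Of the expected counts, 86.1% were whole, and they were rounded to whole numbers for testing. Identifiers of 46005 genes matched GENCODE M21.

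Genes were filtered with filterByExpr, scaled by TMM and tested with edgeR 4.0.16 (quasi-likelihood, R 4.3.3) with Benjamini-Hochberg adjustment over all genes tested, and were called at an adjusted p under 0.05 and at least 2-fold. Ad-hHIF2 and Ad-hHIF1 were each fitted against Ad-GFP on 6 samples, and against each other on all 9. Levels are CPM with TMM factors, divided by effective length in kilobases where genes are compared. Alternatives were DESeq2 1.42.0, limma 3.58.1 on log2(TPM + 1) and log2(TPM + 0.1), no filter, a minimum of 10 counts in every sample, median-ratio factors, total counts alone, other sample sets, a replicate block and leaving out each sample. Python 3.11.15 and matplotlib 3.10.9 drew the figures. Tests were tried on simulated data.

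The members and gene lists were chosen with earlier results of these data known. All members are named, and of each list the genes called (at most 4 per direction by fold change), the most abundant where few were called, set markers of other epithelia, and the 5 genes most correlated with Sox2, Sprr1a and S100a7a, except that some genes these rules name are not reported here. Total depth was 21722618 to 51119041 expected counts, and 9221408 to 23295239 on protein-coding genes, so genes with few counts are measured least precisely.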

Additional observations from a re-analysis of the deposited data

How the results depend on the processing

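Sox2 and S100a7a, which were chosen on this contrast, stayed past the thresholds in Ad-hHIF2 against Ad-GFP under each alternative run, as a description. In that comparison 1009 genes were called, 774 to 981 with a sample left out, 1036 with the replicate block and 237 by limma on log2(TPM + 1), where the listed genes called went from 23 to 7. In Ad-hHIF1 against Ad-GFP, 0 genes were called, 138 with no filter, 1 by DESeq2 and 2 with all 9 samples in one fit; Sprr1a was the 1 member called in each of these, and 1 listed gene was called with no filter. In Ad-hHIF2 against Ad-hHIF1, 951 genes were called, 585 to 1160 with a sample left out, 820 with the replicate block, 138 on log2(TPM + 1) and 408 on log2(TPM + 0.1), and the listed genes called went from 29 to 4 and 15. The causes were not tested. Deviations from the group means correlated little between samples that share a number (means of 0.09, 0.01 and -0.11 in the 3 comparisons), so the numbers were not taken as pairs. Of the members' log2 fold changes, 25, 13 and 27 of 81 moved by more than the replicate spread under the other settings. Depth limits Trp63 and the rarer keratin and Sprr genes.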
